A study of Mus musculus with 2 samples.

Results

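The binding of PPARγ, a ligand-activated nuclear receptor, was described at 55 mouse genes that store, take up and make lipid. All 55 were found in the annotation, among 21851 protein-coding genes. They were listed by their roles, which cover the droplet coat, fatty acid uptake, fatty acid activation, glycerol 3-phosphate supply, triglyceride synthesis, lipolysis, fatty acid synthesis, elongation and desaturation, and 1 adipokine. Several well-known PPAR targets of the same pathway, among them Plin2, Fabp4, Hilpda and Angptl4, were not on the list and are set beside it at the end with other genes of the pathway. A peak was assigned to the gene with the nearest protein-coding transcription start site (TSS), if that lay within 100 kb. By this rule 12 of the 2537 deposited peaks belonged to 10 of the 55 genes, and 7.68% of all protein-coding genes had such a peak.

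The peaks came from a ChIP with an antibody against the TY1 epitope, set against an input of the same cells. Both libraries were made from C57BL/6J naive CD4+ T cells polarised to TH2 in culture, which carried a retrovirus with TY1-tagged PPARγ, given on days 1 and 2, and were harvested on day 4. Both groups therefore expressed the introduced receptor, and binding of the cells' own PPARγ was not measured. The series text states that the experiment was repeated, but 1 library of each kind was given and no replicate, so counts below describe this peak list, and intervals (exact binomial, 95%) cover counting error only. For a count of 0 the limit given is 3 counts of the total. The TH2 identity of the cells could not be checked against marker genes, since no expression values were used here. Per the file header the ChIP library held 10229438 tags, of which 54617 (0.53%) lay in peaks, a mean of 21.5 tags per peak, and a peak needed at least 8 tags. The file gives no tag count for a single peak, so each peak counts once, and a gene without a peak is one without a peak at this depth.

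Fat cells store fatty acids as triglyceride inside droplets that carry a coat of perilipins and CIDE proteins. Fatty acids are taken up, joined to coenzyme A by acyl-CoA synthetases and added to a glycerol 3-phosphate backbone, and lipases release them again. PPARγ drives this programme in fat cells, where it binds with its partner RXR to DR1 elements, direct repeats of AGGTCA with a single base between them. In T cells fatty acids are taken up, oxidised and built into membranes, and PPARγ is known to be expressed in TH2 cells.

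The DR1 matches inside the assigned peaks are shown first, because DR1 is the kind of element that PPARγ and RXR are known to bind. They were searched as AGGTCA, any single base and AGGTCA again, on both strands, with up to 2 mismatches in the 12 fixed bases, in 200 bp around each peak centre. The repeat is in capitals with 10 flanking bases, read 5′ to 3′ on its own strand from mm10, and positions in the repeat count from 1 at its first capital.
Acsl5, chr19:55260588-55260620, plus strand: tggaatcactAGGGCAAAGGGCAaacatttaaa
Pck1, chr2:173157607-173157639, plus strand: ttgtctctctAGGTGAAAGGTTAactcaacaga
Acsl4, chrX:142490105-142490137, plus strand: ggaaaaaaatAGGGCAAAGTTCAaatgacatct

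These 3 were the only DR1 matches among the 12 peaks, a share of 25.0% (interval 5.49 to 57.2), against 19.8% of the other 2525 peaks (499 peaks, interval 18.2 to 21.4). Each differed from the repeat at 2 bases: T4G and T11G in Acsl5, C5G and C12T in Pck1, and T4G and G10T in Acsl4. With at most 1 mismatch 0 of 12 peaks matched, which allows a share of up to 25.0%, against 6.46% of the other peaks. All 3 had adenine as the spacer and thymine just before the repeat. Among all 502 peaks with a DR1 match in the file, 52.8% had adenine as spacer, 47.0% had the preceding thymine and 26.3% had both. A motif with the same bases in scrambled order matched 0 of the 12 peaks and 1.62% of the others.

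Genes with an assigned peak made up 18.2% of the list (10 of 55, interval 9.08 to 30.9), where 7.68% of all protein-coding genes had one. A gene can be assigned a peak only in its territory, the sequence nearest to its TSS within 100 kb, and territories had a median of 59.7 kb over the list and 47.4 kb over all protein-coding genes. The part of territory in the list's share was not tested. Counted by peaks inside the gene body, the list held 5 of 55 genes (9.09%, interval 3.02 to 20.0), against 5.04% of all protein-coding genes. Counted by peaks with a DR1 match, it held 3 (5.45%, interval 1.14 to 15.1), against 1.90%. With 2 or more assigned peaks it held 2 genes, Gpam and Lpin2 (3.64%, interval 0.443 to 12.5), against 1.52%. With peaks within 10 kb alone the list held 5 of 55 genes (9.09%, interval 3.02 to 20.0), against 3.38% of all protein-coding genes. These 4 intervals include their background values. The list was chosen with earlier results of these data known, so no interval in this paragraph is a test of it. Within 1 kb it held 1 of 55, against 0.897%. With the TSSs of all annotated genes, noncoding ones included, 5 of the 55 genes (Acsl5, Dgat1, Gpam, Lipe and Pck1) kept a peak as the nearest gene, against 4.83% of all protein-coding genes.

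The steps of the pathway differed in how many genes had a peak, but each step is small. Triglyceride synthesis had 4 of 11 genes and fatty acid activation 2 of 5. Droplet coat, glycerol 3-phosphate supply, and elongation and desaturation had 1 of 7 each, and lipolysis had 1 of 6. Fatty acid uptake and binding had 0 of 7, which allows a share of up to 42.9%, fatty acid synthesis had 0 of 4 and the adipokine Adipoq had none assigned. The interval of triglyceride synthesis was 10.9 to 69.2%, and the intervals of all 9 steps overlapped each other. With the 10 kb limit triglyceride synthesis had 2 of 11 genes and activation 1 of 5, where 3.38% of all protein-coding genes had a peak. With every gene within 100 kb counted they had 5 of 11 and 2 of 5, where 23.5% had one. Among the other genes of the pathway, 1 of 8 in triglyceride synthesis and 0 of 4 in activation had an assigned peak. Median territories were 127 kb in uptake, 105 kb in triglyceride synthesis, 79.3 kb in fatty acid synthesis and 73.0 kb in activation. They were 70.6 kb in elongation and desaturation, 65.0 kb in glycerol 3-phosphate supply and 58.1 kb in lipolysis. Adipoq had 48.5 kb and the droplet coat genes a median of 12.1 kb. The part of territory in the differences between steps was not tested.

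**Figure D1:**
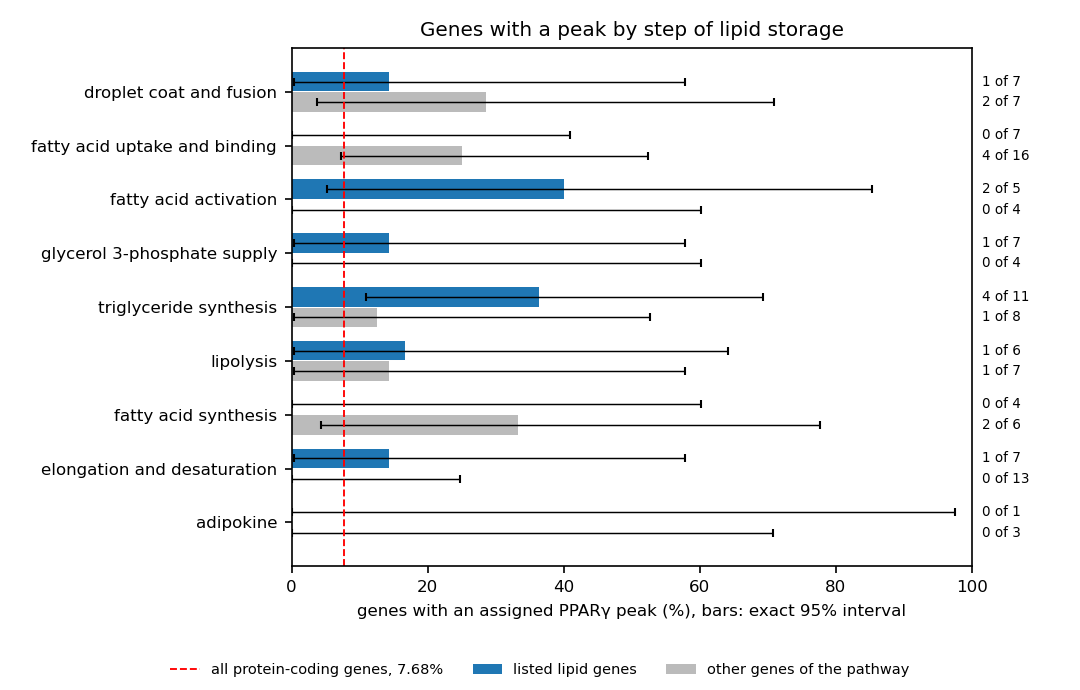
Share of genes with an assigned PPARγ peak (percent) for each step, in listed genes (blue) and other genes of the pathway (grey), with exact 95% intervals and the counts at the right. The dashed line marks the 7.68% of all protein-coding genes, and the longest bars among the listed genes are those of activation (2 of 5) and triglyceride synthesis (4 of 11), with intervals that overlap those of every other step.

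Within triglyceride synthesis the assigned peaks were those of Gpam and Dgat1, whose enzymes begin and end the pathway, and of Agpat5 and Lpin2 between them. With the TSSs of all annotated genes, or within 10 kb alone, Gpam and Dgat1 kept a peak and Agpat5 and Lpin2 did not. Gpam encodes the mitochondrial acyltransferase that adds the first fatty acid to glycerol 3-phosphate, and it had 2 intergenic peaks upstream of its TSS. The nearer was centred at 5.13 kb (chr19:55132257-55132429) and the farther at 12.1 kb (chr19:55139273-55139445). Neither held a DR1 match in its window. The nearer was the only one of the 12 with an AP-1 site (TGACTCA or TGAGTCA, either strand), a motif of the FOS and JUN factors of activated T cells, which 17.9% of the other peaks held. A single AGGTCA core stood beside it, and both are in capitals in the whole peak, plus strand:
Gpam peak: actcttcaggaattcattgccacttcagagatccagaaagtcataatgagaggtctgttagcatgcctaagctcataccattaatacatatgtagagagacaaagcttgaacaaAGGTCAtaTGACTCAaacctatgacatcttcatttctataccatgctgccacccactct
An exact DR1 sequence, in repeat-masked DNA, lay 239 bp from the centre of this peak and so outside both the peak and the window searched.

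Dgat1 encodes the acyltransferase that completes triglyceride, and its peak was the closest to a TSS in the list and the only one in a promoter. It was centred 343 bp upstream (chr15:76512208-76512380), with GC content of 54.5% and 9 CpG in 200 bp, the highest of the 12 peaks on both measures. It held no DR1 match but 2 separate AGGTCA cores on opposite strands, centred 18 and 55 bp from the peak centre. They are in capitals in the plus strand of the peak:
Dgat1 peak: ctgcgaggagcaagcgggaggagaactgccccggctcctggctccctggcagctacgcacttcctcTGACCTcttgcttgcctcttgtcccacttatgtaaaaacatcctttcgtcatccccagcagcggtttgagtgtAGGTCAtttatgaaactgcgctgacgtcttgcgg
At least 1 core occurred in 3 of the 12 peaks, those of Gpam, Dgat1 and Agpat5, and in 27.8% of the other peaks.

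Agpat5, which encodes an acyltransferase of the step that makes phosphatidic acid, had a peak 17.7 kb downstream of its TSS (chr8:18863912-18864084), in intron 2 and inside an unspliced transcript model, Gm45493, that overlaps it. Lpin2, which encodes a phosphatidic acid phosphatase, had 2 peaks upstream of its TSS, at 18.2 kb (chr17:71165238-71165410) and 41.4 kb (chr17:71142022-71142194). Both Lpin2 peaks lay in introns of the long noncoding gene Gm26561, and both were centred in repeat-masked sequence, as were 16.2% of the other peaks and none of the other 10 peaks of the list. The nearest protein-coding TSS beyond Lpin2 was 123 kb or more from either peak. The remaining 7 genes of this step, the acyltransferases Agpat1, Agpat2, Agpat3 and Agpat4, the phosphatases Lpin1 and Lpin3, and Dgat2, which encodes the other enzyme that completes triglyceride, had no assigned peak. Their nearest peaks were at 12.5 kb for Agpat1 and at 146 to 608 kb for the others, with Dgat2 at 146 kb. The paralogs of Lpin2 were at 288 kb (Lpin1) and 608 kb (Lpin3).

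Both genes of fatty acid activation with a peak had a DR1 match in it. Acsl5, which encodes an acyl-CoA synthetase of mitochondria and endoplasmic reticulum, had its peak in intron 1, 7.26 kb downstream of the TSS (chr19:55260543-55260715). The Acsl4 peak was intergenic and lay 99.5 kb upstream of the TSS (chrX:142489985-142490157), the farthest in the list and just inside the 100 kb limit. Acsl4 encodes the synthetase that prefers arachidonic acid, and the next protein-coding TSS from its peak, that of Kcne1l, was 184 kb away. The 13 capitals of the Acsl4 match were the same as those in one of the Plin2 peaks described further on. Acsl6, Acsl3 and Acsl1, the main synthetase gene of fat cells, had their nearest peaks at 109, 155 and 450 kb. Gpam and Acsl5 lie close together on chromosome 19, so 3 of the 12 peaks fall in 1 stretch of the genome.

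Among genes that supply glycerol 3-phosphate, Pck1 alone had an assigned peak. Pck1 encodes the cytosolic phosphoenolpyruvate carboxykinase of gluconeogenesis and of glyceroneogenesis, which makes the backbone without glucose. Its peak lay in intron 8 of 9, 4.52 kb downstream of the TSS (chr2:173157484-173157656), with the DR1 match 53 bp from the peak centre. Pck2, the mitochondrial form, had its nearest peak at 234 kb. The glycerol channel gene Aqp7 and the glycerol kinase gene Gk, both PPARγ targets in fat cells, had theirs at 193 and 20826 kb. The glycerol 3-phosphate dehydrogenase genes Gpd1, Gpd2 and Gpd1l had theirs at 17.7, 688 and 998 kb.

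In lipolysis the assigned peak was at Lipe, the gene of hormone-sensitive lipase, which cleaves diacylglycerol. It lay in intron 2 of the longest transcript, 2.72 kb downstream of an internal TSS and 12.2 kb from the most upstream of the gene's 5 start sites (chr7:25386423-25386595). It held neither a DR1 match nor an AP-1 site, and it also lay within an antisense noncoding gene, 4732471J01Rik. Pnpla2, the gene of the lipase ATGL that begins triglyceride breakdown, had its nearest peak at 115 kb, Mgll, which encodes the lipase of the last step, at 676 kb and Pnpla8 at 3132 kb. Abhd5, which encodes the activator of ATGL, and G0s2, which encodes its inhibitor, had peaks within 100 kb that were nearer to other genes.

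The droplet coat and fusion genes had a single assigned peak, at Cidea, whose product enlarges droplets in brown fat. The peak was 23.5 kb upstream of the TSS (chr18:67319988-67320160) and lay in the last exon of the neighbouring gene Impa2, whose TSS was 30.9 kb away. Counted against all transcripts of the comprehensive annotation, which include noncoding models of protein-coding genes, Cidea was no longer the nearest gene and had no peak. The perilipin genes Plin1, Plin3, Plin4 and Plin5 had their nearest peaks at 285, 338, 157 and 165 kb, and Cidec, the CIDE gene of white fat, at 1510 kb. Of elongation and desaturation genes, Elovl5, which encodes an elongase of polyunsaturated fatty acids, had an intronic peak 41.4 kb downstream of its TSS (chr9:77958690-77958862). Scd1 and Scd2, the genes of stearoyl-CoA desaturases, had theirs at 489 and 375 kb, and Fads1, Fads2, Elovl1 and Elovl6 at 576 to 1260 kb.

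**Figure D2:**
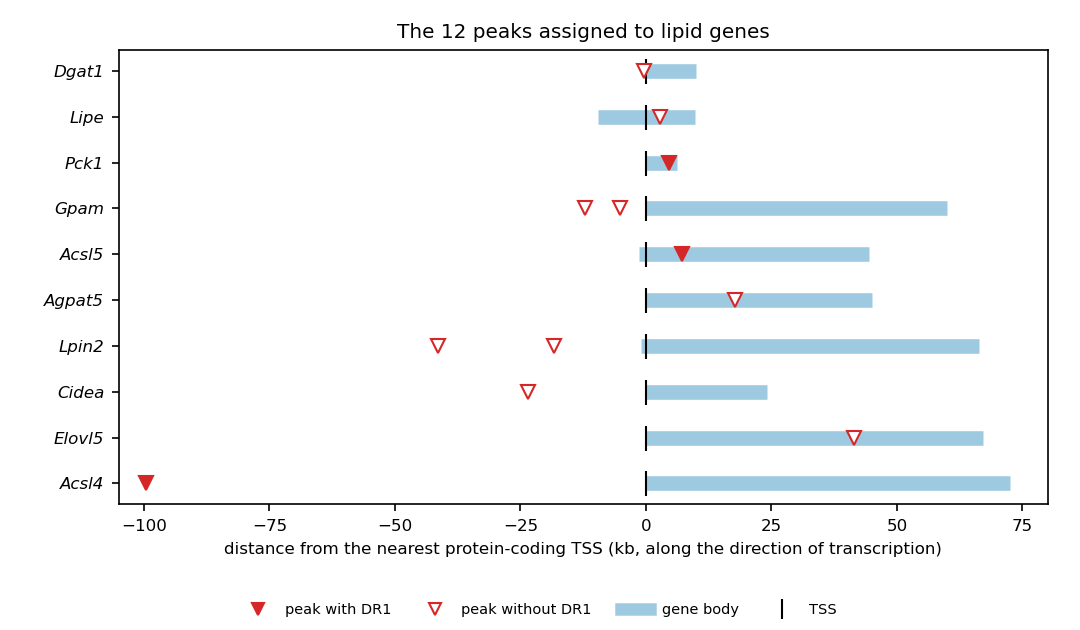
Positions of the 12 assigned peaks (triangles, filled in the 3 with a DR1 match) relative to the nearest protein-coding TSS (tick) along the direction of transcription, in kb, with the gene body as a bar. Peaks of Acsl5, Agpat5, Elovl5, Lipe and Pck1 lie inside the gene body, and those of Acsl4, Cidea, Dgat1, Gpam and Lpin2 lie upstream.

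No listed gene of uptake or of fatty acid synthesis had a peak within 100 kb of a TSS, whichever gene was nearest. For uptake the nearest peaks were at 162 kb from Slc27a4 and 1025 kb from Slc27a1, which encode fatty acid transport proteins, and at 200 kb from Fabp5 and 453 kb from Fabp3, which encode binding proteins. The peak nearest to Fabp5 was the one assigned to its neighbour Fabp4. Lpl, the gene of lipoprotein lipase, had its nearest peak at 1061 kb, Vldlr, which encodes a lipoprotein receptor, at 2002 kb and the fatty acid transporter gene Cd36 at 3496 kb. The median over these 7 genes, all without a peak, was 1025 kb (range 162 to 3496). It was 366 kb over protein-coding genes without an assigned peak and 318 kb over all protein-coding genes. For fatty acid synthesis the nearest peaks were at 100.3 kb from Acly, which encodes the citrate-cleaving enzyme and stood just outside the limit, and at 196 kb from the synthase gene Fasn. Me1, the malic enzyme gene, and Acaca, the gene of acetyl-CoA carboxylase, had theirs at 333 and 663 kb.

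**Figure D3:**
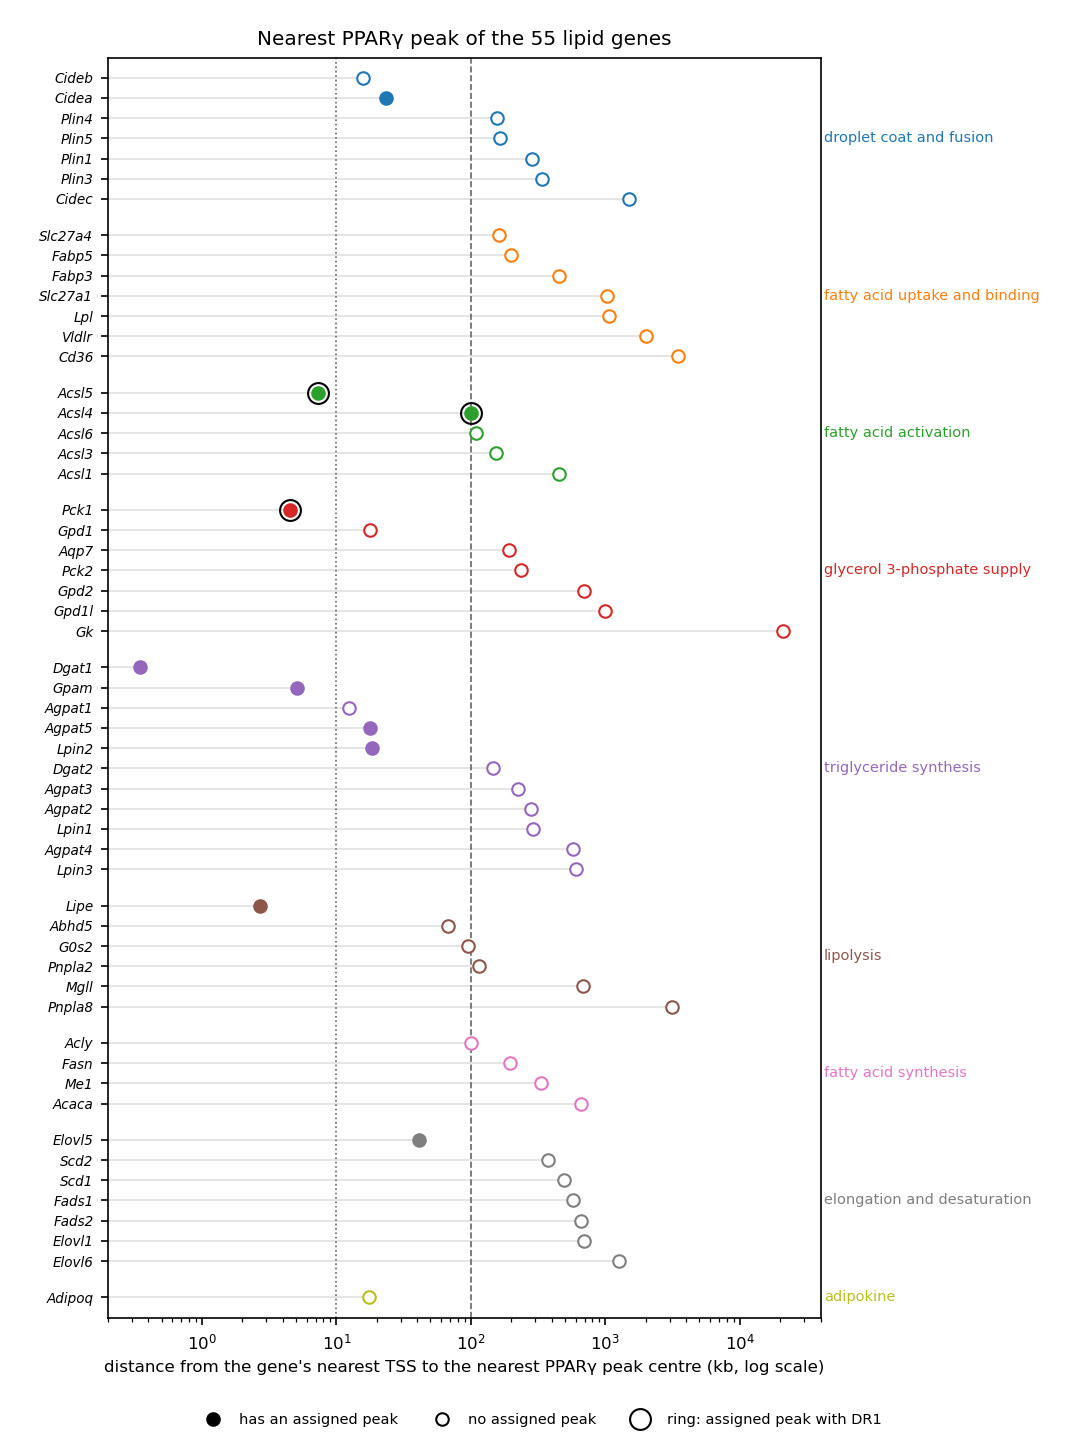
Distance in kb (log scale) from the nearest TSS of each of the 55 genes to the nearest peak centre, grouped by step. Filled points are the 10 genes with an assigned peak, outer rings mark the 3 whose peak holds a DR1 match, and the dotted and dashed lines mark 10 and 100 kb; open points left of the dashed line are the 6 genes whose peak was nearer to another gene.

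A further 6 listed genes had a peak within 100 kb of their own TSS that was assigned to a nearer gene, so that 16 of 55 (29.1%, interval 17.6 to 42.9) had any peak in that range, against 23.5% of all protein-coding genes. Agpat1 had one at 12.5 kb, which was 0.63 kb from Pbx2. Cideb, a CIDE gene of liver, had 2, at 15.8 kb (assigned to Ltb4r1) and 18.9 kb (assigned to Adcy4). Adipoq, the adiponectin gene and a PPARγ target in fat cells, had 2, at 17.6 kb (assigned to Rfc4, 1.19 kb away) and 49.9 kb (assigned to St6gal1). Gpd1 had one at 17.7 kb (assigned to Cox14), Abhd5 one at 67.0 kb (Ano10) and G0s2 2, at 94.3 and 99.9 kb, both assigned to A130010J15Rik. Of these 9 peaks, 2 held DR1 matches, that of Adipoq at 17.6 kb and that of Cideb at 18.9 kb, where 19.8% of all peaks in the file held one. These matches are shown here since their target gene is ambiguous, and the Cideb match has 1 mismatch.
Adipoq, chr16:23128864-23128896, minus strand: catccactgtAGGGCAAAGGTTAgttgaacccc
Cideb, chr14:55777362-55777394, plus strand: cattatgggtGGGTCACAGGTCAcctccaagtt

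Genes with and without an assigned peak were then set side by side on measures that did not use the peaks. The 10 genes with a peak had a median territory of 77.7 kb (range 22.2 to 156) and a median gene length of 45.4 kb, and the 45 without had 59.7 kb (range 6.25 to 200) and 18.7 kb. Over all protein-coding genes the same direction was seen, with territories of 97.1 kb for the 1679 genes with a peak and 44.4 kb for the 20172 without. The number of start sites was alike, with medians of 1.5 and 2. DR1 sequences near the TSS were about as frequent in both groups, with overlapping intervals. A sequence with at most 1 mismatch lay within 10 kb of a TSS in 4 of the 10 genes with a peak (40.0%, interval 12.2 to 73.8) and in 22 of the 45 without (48.9%, interval 33.7 to 64.2). Over the whole list 26 of 55 genes had one (47.3%, interval 33.7 to 61.2), against 37.0% of all protein-coding genes. Within 2 kb the list had 11 of 55 genes with such a sequence (20.0%, interval 10.4 to 33.0), against 8.59% of all protein-coding genes. Of these 11, 3 had an assigned peak, where 10 of the 55 listed genes and 7.68% of all protein-coding genes had one. The 8 genes Acly, Elovl1, Fabp3, Gpd1, Gpd1l, Me1, Plin1 and Pnpla2 had none.

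None of the 41 DR1 sequences within 10 kb of the TSSs of these 26 genes, 4 with and 22 without a peak, lay within 100 bp of a peak centre, which allows a share of up to 7.32%. In the whole genome 170 of 44361 such sequences did (0.383%), a share below that limit. Of the 41, 18 lay in repeat-masked sequence and 21 had guanine as the spacer. Exact repeats stood near Gpam and Lipe, which have peaks elsewhere, and near Cd36, G0s2, Lpin3 and Mgll, which have none assigned. Single-mismatch sequences lay within 1 kb upstream of a TSS at Acly (641 bp), Fabp3 (709 bp), Gpam (759 bp), Elovl1 and Gpd1, and none of these lay in a peak. Shown are the exact repeats of Cd36 and Mgll, which were outside repeat-masked sequence and outside peaks, and the sequences of Elovl1 and Gpd1 as examples.
Cd36, 9.40 kb upstream of a TSS, chr5:17898130-17898162, plus strand: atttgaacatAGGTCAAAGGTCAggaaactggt
Mgll, 6.86 kb upstream, chr6:88717540-88717572, minus strand: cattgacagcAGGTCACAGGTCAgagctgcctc
Elovl1, 89 bp upstream, chr4:118429596-118429628, minus strand: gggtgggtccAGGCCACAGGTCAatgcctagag
Gpd1, 938 bp upstream, chr15:99716561-99716593, minus strand: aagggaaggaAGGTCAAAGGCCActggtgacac
The Cd36 sequence is the exact repeat with adenine as spacer and thymine before it, the flanks seen in all 3 DR1 matches in the assigned peaks. Single-mismatch sequences near Fads1 and Me1 had the same flanks and lay in no peak. Because the flanks were picked from peaks of this file, the shares that follow are no test of them. The genome holds 84 exact repeats with these flanks, and 5 of them (5.95%) lay in a peak, against 21 of 4417 exact repeats with other flanks (0.475%). With at most 1 mismatch it was 39 of 1333 (2.93%) against 131 of 43028 (0.304%). How much of each group lay in repeated sequence, which unique alignment leaves out, was not counted.

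**Figure D4:**
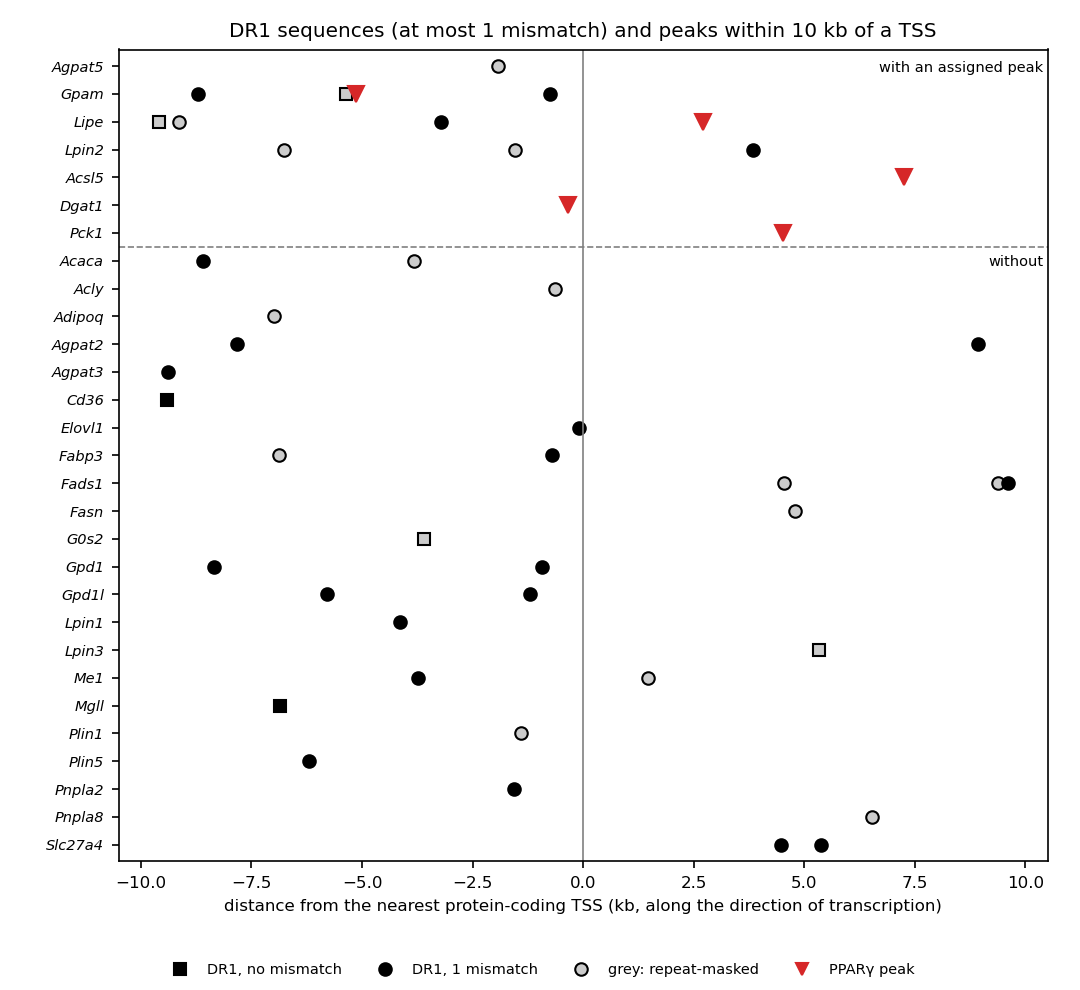
DR1 sequences with at most 1 mismatch (squares, exact; circles, 1 mismatch; grey, repeat-masked) and PPARγ peaks (triangles) within 10 kb of a TSS, by distance from the TSS in kb. Listed genes with an assigned peak are above the dashed line and those without below it; none of the 41 sequences coincides with a peak, the nearest being the exact repeat 239 bp from a Gpam peak.

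Other motifs in the 12 peaks were counted against the other 2525 peaks. GATA sites (AGATAA or TGATAA, either strand) were in 3 of the 12 peaks, those of Acsl4, Agpat5 and Lpin2 at 41.4 kb, and in 26.5% of the others. The RUNX site (TGTGGTT) was in 3, those of Agpat5, Gpam at 12.1 kb and Lpin2 at 41.4 kb (25.0%, interval 5.49 to 57.2), and in 7.41% of the others (interval 6.41 to 8.50). Neither the ETS sites (ACCGGAAG or ACAGGAAG, 3.92% of the others), nor the E-box CACGTG (2.22%), nor DR4, AGGTCA cores 4 bases apart with up to 2 mismatches, the element of the sterol receptor LXR (2.85%), was found in any of the 12, which allows a share of up to 25.0% for each. Neither DR1 nor AP-1 was present in 8 of the 12 peaks (66.7%), as in 65.7% of the others. Peak distance to the TSS had a median of 14.9 kb in the list and 16.4 kb over the other assigned peaks, and 50.0% against 52.4% of all other peaks lay in introns. Exons held 2 of the 12, those of Agpat5 (the model Gm45493) and Cidea (Impa2). This share was 16.7% (interval 2.09 to 48.4), against 3.49% of the other peaks.

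For the 68 other genes of the same pathway, 10 had an assigned peak (14.7%, interval 7.28 to 25.4), against 10 of the 55 listed genes (18.2%) and 7.68% of all protein-coding genes. The 10 genes held 17 peaks, of which 5 (29.4%, interval 10.3 to 56.0) had a DR1 match, against 3 of the 12 peaks of the list (25.0%) and 19.8% of all peaks in the file. The droplet genes Plin2, with 4 peaks, and Hilpda, with 3, held 7 of these 17 peaks and 4 of their 5 DR1 matches. The Gpat4 peak lay 755 bp upstream of the TSS (chr8:23209015-23209187); Gpat4 encodes the endoplasmic reticulum counterpart of the Gpam enzyme. The other genes of this family, Gpat2 and Gpat3, had none assigned, with their nearest peaks at 642 and 1512 kb. Uptake, which had no peak among the listed genes, had 4 of 16 here (25.0%, interval 7.27 to 52.4), among them Angptl4 and Fabp1 with 2 peaks each and Fabp4 with 1. Oxsm and Me2, of mitochondrial fatty acid synthesis and malate metabolism, had 1 each, as did the lipid hydrolase gene Abhd12. The Oxsm peak lay in intron 2 of the neighbouring gene Ngly1, 6.44 kb from the Oxsm TSS and 6.92 kb from that of Ngly1. The 13 elongation and desaturation genes had none, which allows a share of up to 23.1%. The DR1 matches of the Fabp4 peak and of the Plin2 peak at 20.2 kb are shown for comparison with that of Acsl4, whose 13 capitals the Plin2 match shares.
Fabp4, chr3:10212224-10212256, minus strand: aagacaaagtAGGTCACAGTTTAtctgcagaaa
Plin2, chr4:86690262-86690294, plus strand: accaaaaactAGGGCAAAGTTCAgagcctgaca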

How the data were processed

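Per the series text, reads of 1 ChIP and 1 input library were aligned to mm10 with Bowtie2 and uniquely mapped tags kept; HOMER called the peaks at a false discovery rate of 0.001, keeping those with 4-fold more tags than both the input and the local region of 10000 bp, per the file headers. Versions are not given in the sources used here. In the deposited file the score is 1 for each of the 2537 peaks, so strength is unknown and no stricter threshold could be tried. Unique alignment leaves out repeated sequence. The members and lists were chosen with earlier results of these data known, so no test was made of them and their intervals give counting precision alone. Named are all listed genes with an assigned peak, those with a peak nearer to another gene, 10 fat cell targets without one, the remaining listed genes by step, and the other pathway genes with a peak, of which 1 is not reported here.

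Genes came from the GENCODE vM21 basic set (protein-coding transcripts), and sequence and repeat masking from the GRCm38.p6 RefSeq assembly, whose chromosome lengths hold all peaks. Peak centres were classed in the order promoter (1000 bp upstream to 100 bp downstream of any annotated TSS), exon, intron, intergenic. Sequences from chromosome 18 are not printed. Assignment and motif search, tested on simulated data, returned 500 of 500 simulated positions and 200 of 200 planted repeats at 0, 1 and 2 mismatches each. Computation ran in Python 3.11.15 (scipy 1.17.1, pandas 2.3.3, numpy 2.4.6), plots in matplotlib 3.10.9.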

Additional observations from a re-analysis of the deposited data

How the results depend on the processing

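No paired analysis was possible because there was 1 library of each kind. Of 14 alternatives, 8 kept the count of listed genes with a peak within 1.5 times of 10. Counting every protein-coding gene within 100 kb gave 16 genes and 24 peaks. The 10 kb limit gave 5 genes and 5 peaks, nearest TSS among all annotated genes 5 and 6, gene bodies 5 and 5, and DR1 peaks alone 3 and 3, where all protein-coding genes stood at 23.5, 3.38, 4.83, 5.04 and 1.90%. The rows of the file held 7 peaks at 7 genes in the first 1268 and 5 peaks at 4 genes in the other 1269, where 4.33 and 4.19% of all protein-coding genes had one. The 2 transcript sets added after the data were seen gave 10 genes and 9 genes. DR1 matches in the 12 peaks numbered 0 with at most 1 mismatch (6.46% of other peaks), 8 with 3 (48.2%) and 1 in 100 bp windows (12.8%). They numbered 0 for the scrambled repeat (1.62%) and 1 among the 5 peaks of the later rows (16.2% of other peaks there). Listed genes with a DR1 sequence near the TSS numbered 11 within 2 kb (8.59% of all protein-coding genes) and 34 with up to 2 mismatches there (48.2%). The promoter count, 1, did not change. The stricter score threshold was not run. With 12 peaks and 1 library, the width of the intervals given limits each share, and peak strength could not be compared.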
